A study of Mus musculus with 32 samples.

Results

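Molecular chaperones and the factor that drives their transcription, Hsf1, were followed in 2 mouse models of neurodegeneration. The group held 37 genes: the heat shock factors Hsf1 and Hsf2, the heat shock proteins of the HSP70, HSP110, HSP90, HSP60 and small classes, J-domain proteins, co-chaperones and subunits of the CCT chaperonin. They were found by name among the 27573 genes of an Agilent whole-genome mouse array. All 37 were present, on 76 probes (11 genes had 1 probe and 26 had several), and each gene was read from its brightest probe. Of the 37, 34 were bright enough to be tested in at least 1 comparison and 27 in all 4. Hsf2, Hspa1b and Hspb6 were tested in none, because their probes were well above background in too few extracts.

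The RNA came from cells cut by laser from cresyl violet stained sections of the lumbar cord, either anterior horn motor neurons or the glia around them. SOD1-G93A mice were female, 8 weeks old, of the line B6SJL-Tg(SOD1-G93A)1Gur, a transgene with a mutant human superoxide dismutase and a model of amyotrophic lateral sclerosis; their controls were B6SJL littermates. TAU-P301L mice were female, 16 weeks old, of the line B6D2F1-Tg(TAU-P301L), which carries a mutant tau; their controls were B6D2F1 littermates. Model, age and strain background differ together and cannot be told apart. Each of the 4 comparisons, 2 per model, held 4 littermate pairs, and the transgenic and control extracts of a pair shared 2 arrays with the dyes exchanged, so that 32 arrays give n = 4 pairs per comparison. About 500 cells were taken per mouse. In such captures, fewer cells of a type and less RNA per cell cannot be told apart.

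Chaperones bind unfolded stretches of other proteins and let them fold or be degraded. HSP70 proteins such as Hspa8 do this in cycles driven by ATP, J-domain proteins (Dnaj genes) bring them clients, nucleotide exchange factors (HSP110 and BAG proteins) release the clients, and HSP90, small heat shock proteins and the ring-shaped HSP60 and CCT chaperonins take over particular clients. In stressed cells Hsf1 binds repeated GAA units, the heat shock element, in the promoters of many of these genes and raises their transcription. Motor neurons are known for a high threshold of this response, and misfolded mutant SOD1 and tau are both clients of chaperones.

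Promoters of the group are shown because they are the sequences through which Hsf1 is known to reach these genes. RefSeq windows (build GRCm38.p6) covering 250 bases before to 50 after a transcription start were available for 29 of the 37 members. A pair of patterns of inverted GAA units was searched on both strands, GAANNTTCNNGAA (3 units) and the shorter GAANNTTC or TTCNNGAA (2 units), which overlap each other and the longer pattern. The 3-unit pattern was found in 4 of the 29 members (13.8%), Hsph1, Hspd1, Hspe1 and Dnajb6, against 0.662% of all 27025 genes with a window. The 2-unit pattern was found in 15 of 29 members (51.7%), against 17% of all genes. Among 69 other chaperone genes with a window, 0 held the 3-unit pattern and 8 (11.6%) the 2-unit pattern. The windows of 6 members follow, 5′ to 3′ along the gene, with the matched letters in capitals. The Hspe1 window, at chr1:55087898-55088197 (plus strand), is shared with Hspd1 over 285 bases, since the genes lie head to head. Those of Hsph1, at chr5:149636287-149636586 (minus strand), and Dnajb6, at chr5:29735648-29735947 (plus strand), also hold 3 units. Those of Hspb1, at chr5:135887669-135887968 (plus strand), Bag3, at chr7:128523333-128523632 (plus strand), and Hspa1a, at chr17:34972107-34972406 (minus strand), hold 2-unit matches and belong to genes described below. The Hspa1a window matches that of its near-identical neighbour Hspa1b at 296 of 300 bases.
Hspe1: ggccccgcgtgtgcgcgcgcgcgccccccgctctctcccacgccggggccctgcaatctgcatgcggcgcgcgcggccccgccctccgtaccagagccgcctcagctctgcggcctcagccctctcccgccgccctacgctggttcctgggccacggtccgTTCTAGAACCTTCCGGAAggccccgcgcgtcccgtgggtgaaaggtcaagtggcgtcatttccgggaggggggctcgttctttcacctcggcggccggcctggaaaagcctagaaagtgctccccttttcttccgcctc
Hsph1: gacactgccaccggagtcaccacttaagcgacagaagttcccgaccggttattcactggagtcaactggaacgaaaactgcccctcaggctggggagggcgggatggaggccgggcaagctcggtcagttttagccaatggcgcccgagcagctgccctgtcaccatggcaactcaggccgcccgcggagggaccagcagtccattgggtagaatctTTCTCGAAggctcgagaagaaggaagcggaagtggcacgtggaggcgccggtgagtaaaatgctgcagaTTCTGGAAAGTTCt
Dnajb6: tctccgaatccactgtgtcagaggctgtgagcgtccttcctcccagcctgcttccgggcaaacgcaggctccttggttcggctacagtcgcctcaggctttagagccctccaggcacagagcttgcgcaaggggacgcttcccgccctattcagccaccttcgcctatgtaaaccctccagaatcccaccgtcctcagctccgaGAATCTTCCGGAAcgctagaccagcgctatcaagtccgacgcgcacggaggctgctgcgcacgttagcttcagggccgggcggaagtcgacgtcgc
Hspb1: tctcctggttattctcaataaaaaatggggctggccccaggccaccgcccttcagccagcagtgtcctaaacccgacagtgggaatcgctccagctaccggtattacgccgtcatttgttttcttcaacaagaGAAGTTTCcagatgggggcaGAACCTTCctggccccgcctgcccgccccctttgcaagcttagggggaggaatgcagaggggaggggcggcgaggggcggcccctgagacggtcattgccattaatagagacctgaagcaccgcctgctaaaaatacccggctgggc
Bag3: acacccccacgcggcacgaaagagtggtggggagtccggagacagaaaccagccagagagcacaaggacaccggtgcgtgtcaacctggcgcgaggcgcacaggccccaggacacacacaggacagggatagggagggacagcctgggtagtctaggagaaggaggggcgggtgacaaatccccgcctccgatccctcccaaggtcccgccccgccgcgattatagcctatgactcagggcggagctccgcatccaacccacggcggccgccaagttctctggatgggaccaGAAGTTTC
Hspa1a: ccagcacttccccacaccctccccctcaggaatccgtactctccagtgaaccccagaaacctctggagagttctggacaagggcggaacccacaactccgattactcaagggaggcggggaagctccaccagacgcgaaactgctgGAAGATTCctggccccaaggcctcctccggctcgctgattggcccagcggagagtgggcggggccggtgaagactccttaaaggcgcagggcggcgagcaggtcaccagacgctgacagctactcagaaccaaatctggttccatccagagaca
The matched letters begin 89 bases before the start site in Hspe1, 46 before it in Dnajb6, 117 before it in Hspb1 and 104 before it in Hspa1a. The only match of Bag3 begins 42 bases after it. In Hsph1 a 2-unit match begins 33 bases before the start site, and the 3-unit match lies after it. A match is a string of letters in this window and not a measured binding site.

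The precision of the members' ratios varied between pairs. The number of probes well above background ran between 3493 and 26379 per extract. Over tested genes, the ratios of the 2 dye-swapped arrays of a pair, both turned to transgenic over control, correlated between -0.77 (TAU-P301L glia, pair 1) and 0.65 (SOD1-G93A motor neurons, pair 4). They were below 0 in 6 pairs: SOD1-G93A glia 1 and 2, TAU-P301L motor neurons 3 and TAU-P301L glia 1, 2 and 3. Among the tested members, 27 of 32 (84.4%) had the same sign on both arrays in SOD1-G93A motor neuron pair 1, but 5 of 23 (21.7%) in TAU-P301L glia pair 1. SOD1-G93A motor neuron pair 3 stood apart in the level of the group: the median log2 intensity of the members was 7.25 in its transgenic and 7.33 in its control extract, against 8.13 to 9.004 in the other control motor neuron extracts. The arrays fell on 6 scan days. Motor neuron and glia arrays were never scanned on the same day and were read with different software versions and pixel sizes, so cell type and scanning cannot be told apart. No 2 arrays held identical values.

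The captures were checked against cell type markers. In control motor neurons 4 of 8 tested motor neuron markers were higher than in control glia and 1 was lower (Mnx1, with a log2 difference of -0.36), while 6 of 10 astrocyte and 5 of 8 oligodendrocyte markers were lower. The defining markers Chat, whose enzyme makes acetylcholine, and Slc18a3, which loads it into vesicles, were well above background in 4 and 3 of the 8 control motor neuron extracts. The markers that passed as higher were Nefm, Nefl, Calca and Slc5a7, while Nefh (0.88), Isl2 (0.29) and Isl1 (-0.36) did not pass. The motor neuron label itself comes from the capture and not from these markers. Markers of interneurons were also higher in the motor neuron captures: of 7 listed, 3 were tested, all 3 lay above 0 and 2 passed (Slc6a5, 0.71, adjusted p = 0.00146, and Penk, 1.11, adjusted p = 0.00653). Their summed log2 intensity was 9.32 to 10.45 and 10.21 to 11.00 in control motor neurons of the SOD and TAU colonies, against 9.36 to 9.83 and 9.46 to 9.62 in control glia. The part of other neurons in the levels of the members was not tested. The summed log2 intensity of the 11 motor neuron markers was 11.5 to 14.51 in control motor neurons of the SOD colony and 13.32 to 14.41 in those of the TAU colony, against 11.49 to 12.88 and 12.18 to 13.36 in control glia of the same colonies. The ranges of motor neurons and glia overlapped in both colonies. The 12 astrocyte markers summed to 11.57 to 13.19 and 13.09 to 13.31 in control motor neurons of the 2 colonies, against 13.48 to 14.18 and 13.62 to 14.31 in glia, and Gfap was well above background in 3 of 8 extracts of either cell type.

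The first question was whether the transgene changed the group in either cell type. No member passed an adjusted p of 0.05 in any of the 4 comparisons (limma over all tested genes, with Benjamini-Hochberg adjustment), and neither did any other gene (0% of 13296 genes tested in motor neurons and 10442 in glia of SOD1-G93A mice, and of 11653 and 8905 in those of TAU-P301L mice). At an unadjusted p under 0.05 in SOD1-G93A motor neurons, 1 of 33 members was higher (Hspa2) and 5 were lower (Hspb1, Bag3, Dnajb2, Stub1 and Tcp1), where 3.47% and 5.93% of all tested genes were higher and lower. In SOD1-G93A glia 3 of 28 were higher (Hspe1, Dnajb6 and Dnajc5) and 1 was lower (Hsf1), against 6.9% and 8.03% of all genes. In TAU-P301L motor neurons 2 of 32 were higher (Dnajb2 and Stub1) and 1 was lower (Dnajc3), against 1.81% and 1.63% of all genes. In TAU-P301L glia 5 of 27 were higher (Hspa4l, Hsp90aa1, Dnajb1, Dnajb4 and Dnajb6) and 1 was lower (Hsf1), against 4.75% and 8.16%. The genes named in these counts were listed after their values were seen. The size of the shifts was small. The median log2 ratio of transgenic over control over the members was -0.052 in motor neurons (13 above 0 and 20 below) and 0.074 in glia (19 and 9) of SOD1-G93A mice. In TAU-P301L mice it was 0.051 in motor neurons (19 and 13) and 0.084 in glia (21 and 6), where the median of all tested genes lay between -0.0059 and 0.017. The heat map of the pair ratios shows that few members kept 1 colour over the 4 pairs of a comparison.

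**Figure D1:**
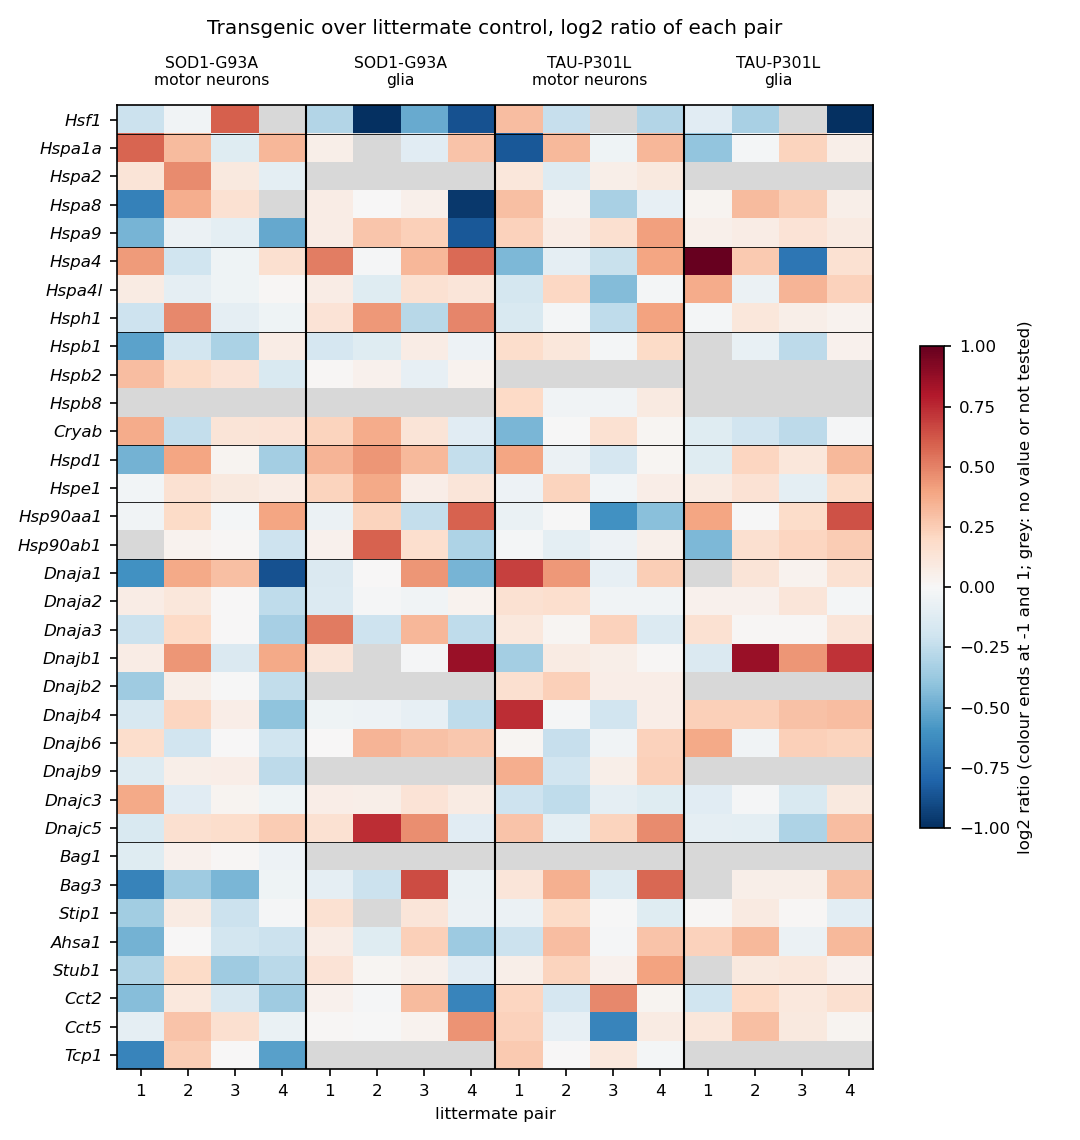
Log2 ratio of transgenic over littermate control for the 34 members tested in at least 1 comparison (rows, grouped by class) in each of the 16 littermate pairs (columns, 4 per comparison). Red is higher in the transgenic extract, blue is lower and grey has no value or was not tested; the colour scale ends at -1 and 1, and the Hsf1 row is blue in all 4 pairs of SOD1-G93A glia.

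Hsf1, the master transcription factor of the heat shock response, had the lowest mean ratio of any tested member in both glia comparisons. Its log2 ratios of transgenic over control were -0.29, -1.08, -0.51 and -0.87 in pairs 1 to 4 of SOD1-G93A glia, a mean of -0.69 ± 0.35 (SD, n = 4). All 4 pairs were lower in the transgenic extract, but the change did not pass (unadjusted p = 0.00341, adjusted p = 0.106). In TAU-P301L glia the ratios were -0.11, -0.33 and -1.17 in pairs 1, 2 and 4, with no value in pair 3, and the mean was -0.54 ± 0.56 (SD, n = 3) (adjusted p = 0.321). In motor neurons the pairs had both signs. They were -0.22, -0.032 and 0.60 in pairs 1, 2 and 3 in SOD1-G93A mice (mean 0.12 ± 0.43 (SD, n = 3), adjusted p = 0.888), and 0.31, -0.23 and -0.30 in pairs 1, 2 and 4 in TAU-P301L mice (mean -0.074 ± 0.33 (SD, n = 3), adjusted p = 0.999). The difference of the 2 SOD1-G93A effects, motor neurons minus glia, was 0.80 ± 0.29 (SE) and did not pass (unadjusted p = 0.0163, adjusted p = 0.21).

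The Hsf1 values rest on a bright probe that did not repeat well between dyes. With the transgenic RNA in Cy3 and then in Cy5, SOD1-G93A glia pair 2 gave Hsf1 ratios of -3.22 and 1.06 and pair 1 gave -0.75 and 0.16, whereas pair 3 gave -0.42 and -0.60 and pair 4 gave -0.48 and -1.26. In TAU-P301L glia pair 1 the 2 arrays gave -2.41 and 2.19. The mean over the pairs whose arrays correlate above 0 (SOD1-G93A glia 3 and 4) was -0.69, the same as over all 4 pairs. Under median centring of each array in place of loess it was -0.17, and the Hsf1 mean in TAU-P301L glia was then 0.045, on the other side of 0. The probe lies at chr15:76327357-76327417 (build mm8, per the file headers) and had a mean log2 intensity of 11.33. The other 2 Hsf1 probes, at chr15:76327923-76327982 and chr15:76328001-76328060, had mean log2 intensities of 6.15 and 6.11, were rarely well above background and gave a mean ratio of -0.032 and -0.028 in SOD1-G93A glia, so the probes of this gene disagree. Hsf2, a second heat shock factor, was well above background in 1 of the 32 extracts, and its mean ratios lay between -0.023 and 0.00058.

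**Figure D2:**
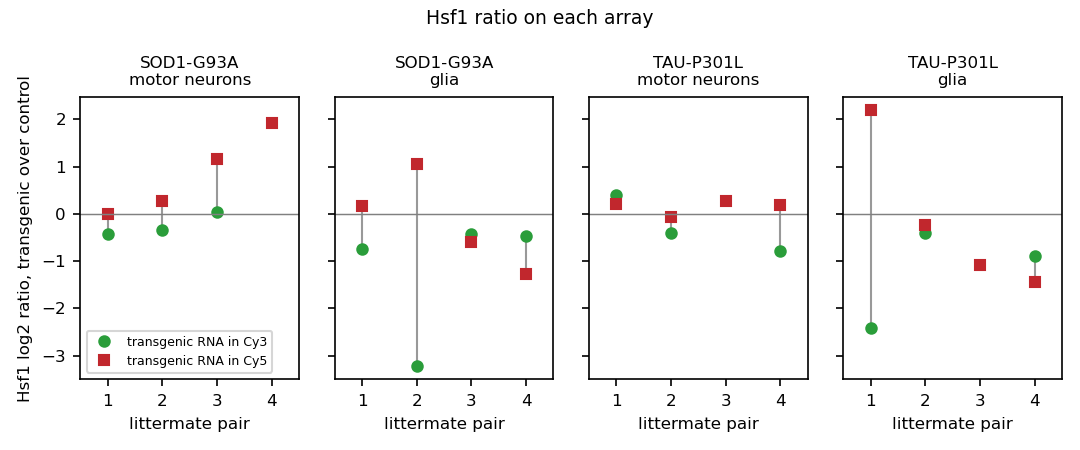
Hsf1 log2 ratio of transgenic over control on each array, by littermate pair and comparison; circles have the transgenic RNA in Cy3 and squares in Cy5, and a grey line joins the 2 arrays of a pair. In SOD1-G93A glia the arrays of pairs 3 and 4 lie on the same side of 0 and those of pair 2 lie at -3.22 and 1.06.

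Among the HSP70 genes, the inducible ones did not pass in any comparison. Hspa1a, the classic stress-induced HSP70, had ratios of 0.58, 0.31, -0.12 and 0.33 in pairs 1 to 4 of SOD1-G93A motor neurons (mean 0.28 ± 0.29 (SD, n = 4), adjusted p = 0.6). The glia of these mice had 0.060, -0.11 and 0.28 in pairs 1, 3 and 4 (mean 0.076 ± 0.20 (SD, n = 3), adjusted p = 0.922). In TAU-P301L mice the ratios were -0.85, 0.33, -0.046 and 0.33 in pairs 1 to 4 of motor neurons (mean -0.059 ± 0.55 (SD, n = 4), adjusted p = 0.999) and -0.39, -0.020, 0.22 and 0.058 in pairs 1 to 4 of glia (mean -0.033 ± 0.26 (SD, n = 4), adjusted p = 0.966). Each of these comparisons had pairs on both sides of 0. A second Hspa1a probe gave means of 0.23, 0.13, 0.029 and 0.20 in the same order of comparisons. Hspa1b, which encodes almost the same protein, was dim. Its ratios were -0.13, 0.074, -0.089 and 0.021 in pairs 1 to 4 of SOD1-G93A motor neurons and -0.23, 0.050, 0.070 and -0.022 in pairs 1 to 4 of SOD1-G93A glia. They were -0.11, 0.12, -0.0096 and -0.018 in pairs 1 to 4 of motor neurons and -0.023, -0.040, 0.0094 and -0.023 in pairs 1 to 4 of glia in TAU-P301L mice. With at most 3 of 8 extracts well above background it was not tested, and since the transcripts of Hspa1a and Hspa1b are almost the same, how the signal divides between them is uncertain.

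Hspa8, the constitutive cytosolic HSP70, had ratios of -0.68, 0.36 and 0.15 in pairs 1, 2 and 3 of SOD1-G93A motor neurons (mean -0.056 ± 0.55 (SD, n = 3), adjusted p = 0.948). In SOD1-G93A glia it had 0.072, 0.00031, 0.051 and -0.96 in pairs 1 to 4 (mean -0.21 ± 0.50 (SD, n = 4), adjusted p = 0.661), where pair 4 alone was far below 0. In TAU-P301L motor neurons it had 0.30, 0.035, -0.32 and -0.081 in pairs 1 to 4 (mean -0.017 ± 0.26 (SD, n = 4), adjusted p = 0.999). All 4 pairs of TAU-P301L glia were above 0, at 0.024, 0.31, 0.25 and 0.055 in pairs 1 to 4 (mean 0.16 ± 0.14 (SD, n = 4)), without passing (adjusted p = 0.806). A second, dimmer Hspa8 probe had means of -0.11, 0.19, 0.026 and 0.086 in the same order of comparisons. The 2 probes differed in sign in TAU-P301L motor neurons and in SOD1-G93A glia, where the second was well above background in 5 of 8 extracts. Hspa9, the HSP70 of the mitochondrial matrix, was below 0 in each pair of SOD1-G93A motor neurons and above 0 in each pair of TAU-P301L motor neurons. Its ratios were -0.47, -0.061, -0.095 and -0.51 in pairs 1 to 4 of SOD1-G93A motor neurons (mean -0.28 ± 0.24 (SD, n = 4), adjusted p = 0.543). They were 0.23, 0.077, 0.16 and 0.41 in pairs 1 to 4 of TAU-P301L motor neurons (mean 0.22 ± 0.14 (SD, n = 4), adjusted p = 0.999). The difference between the 2 models did not pass, at -0.50 ± 0.20 (SE) (unadjusted p = 0.0215, adjusted p = 0.447). A second, dimmer Hspa9 probe had means of -0.19 in SOD1-G93A and -0.016 in TAU-P301L motor neurons, so the positive TAU-P301L values rest on 1 probe. Hspa2, known for its role in the testis, was dim, with a mean of 0.15 ± 0.24 (SD, n = 4) in SOD1-G93A motor neurons (adjusted p = 0.53).

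The 3 HSP110 genes, exchange factors for HSP70, had positive means in both glia comparisons and none passed. In SOD1-G93A glia the means were 0.35 ± 0.26 (SD, n = 4) for Hspa4, 0.058 ± 0.12 (SD, n = 4) for Hspa4l and 0.20 ± 0.35 (SD, n = 4) for Hsph1. In TAU-P301L glia Hspa4l had 0.37, -0.060, 0.34 and 0.23 in pairs 1 to 4 (mean 0.22 ± 0.20 (SD, n = 4), adjusted p = 0.3), and Hspa4 spread between -0.72 and 1.47. In motor neurons the 6 means of these genes lay between -0.11 and 0.086.

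The HSP90 genes, which hold signalling proteins and other late folding clients, did not pass in any comparison. Hsp90aa1, the inducible cytosolic form, had ratios of -0.070, -0.0073, -0.61 and -0.42 in pairs 1 to 4 of TAU-P301L motor neurons (mean -0.28 ± 0.29 (SD, n = 4), adjusted p = 0.999), all below 0. In TAU-P301L glia it had 0.40, -0.0055, 0.18 and 0.64 in pairs 1 to 4 (mean 0.30 ± 0.28 (SD, n = 4), adjusted p = 0.345), and without the 3 pairs whose dye-swapped arrays correlate below 0 the single pair left was at 0.64. The difference, motor neurons minus glia, was -0.58 ± 0.19 (SE) and did not pass (unadjusted p = 0.00784, adjusted p = 0.932). In SOD1-G93A mice Hsp90aa1 had -0.034, 0.19, -0.016 and 0.40 in pairs 1 to 4 of motor neurons (mean 0.13 ± 0.20 (SD, n = 4), adjusted p = 0.767). In the glia it had -0.060, 0.22, -0.24 and 0.59 in pairs 1 to 4 (mean 0.13 ± 0.36 (SD, n = 4), adjusted p = 0.748), so both SOD1-G93A comparisons held pairs of either sign. The SOD1-G93A motor neuron mean of Hsp90aa1 was -0.29 under median centring, so its sign depends on the normalization. The constitutive Hsp90ab1 had means of -0.054 ± 0.13 (SD, n = 3), 0.12 ± 0.37 (SD, n = 4), -0.031 ± 0.062 (SD, n = 4) and 0.045 ± 0.33 (SD, n = 4) in SOD1-G93A motor neurons, SOD1-G93A glia, TAU-P301L motor neurons and TAU-P301L glia.

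Hspd1 and Hspe1, the mitochondrial HSP60 chaperonin and its HSP10 lid, share the promoter printed above. Hspe1 was above 0 in all 4 pairs of SOD1-G93A glia, at 0.22, 0.38, 0.069 and 0.12 in pairs 1 to 4 (mean 0.20 ± 0.14 (SD, n = 4)), and had the smallest p among the members that were higher there (unadjusted p = 0.00448, adjusted p = 0.116). Its arrays of pair 2 gave 1.37 and -0.61, and the mean over pairs 3 and 4, whose arrays correlate above 0, was 0.096. Hspd1 had 0.34, 0.44, 0.32 and -0.24 in pairs 1 to 4 of the same comparison (mean 0.22 ± 0.31 (SD, n = 4), adjusted p = 0.502), above 0 in 3 of 4 pairs. In the other 3 comparisons Hspe1 means lay between 0.053 and 0.077 and Hspd1 means between -0.097 and 0.13.

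Small heat shock proteins hold unfolding proteins without ATP, and mutations in HSPB1 and HSPB8 cause motor neuropathies in humans. Hspb1 (HSP27) had ratios of -0.53, -0.18, -0.31 and 0.071 in pairs 1 to 4 of SOD1-G93A motor neurons (mean -0.24 ± 0.25 (SD, n = 4)), the smallest p of any member there (unadjusted p = 0.00899), but it did not pass (adjusted p = 0.476). Of its 4 pairs, 3 were below 0. In SOD1-G93A glia it had -0.17, -0.12, 0.074 and -0.050 in pairs 1 to 4 (mean -0.067 ± 0.11 (SD, n = 4), adjusted p = 0.79). In TAU-P301L motor neurons it had 0.18, 0.12, -0.018 and 0.19 in pairs 1 to 4 (mean 0.12 ± 0.095 (SD, n = 4), adjusted p = 0.999). In TAU-P301L glia it had -0.076, -0.26 and 0.045 in pairs 2, 3 and 4 (mean -0.098 ± 0.15 (SD, n = 3), adjusted p = 0.754). The signs of these pairs were mixed in all 4 comparisons.

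Cryab (alpha B-crystallin), abundant in oligodendrocytes and astrocytes, was below 0 in all 4 pairs of TAU-P301L glia, at -0.12, -0.19, -0.26 and -0.0096 in pairs 1 to 4 (mean -0.15 ± 0.11 (SD, n = 4)), and did not pass (adjusted p = 0.618). In that comparison 10 of 11 astrocyte and 7 of 8 oligodendrocyte markers also had means below 0 (medians -0.15 and -0.20), while 7 of 8 motor neuron markers were above 0 (median 0.30), and their part in the glia results was not tested. The summed log2 intensity of oligodendrocyte markers in control TAU glia was 13.59 to 14.30. Cryab had -0.46, -0.0056, 0.15 and 0.016 in pairs 1 to 4 of TAU-P301L motor neurons (mean -0.074 ± 0.27 (SD, n = 4), adjusted p = 0.999). In SOD1-G93A mice it had 0.37, -0.24, 0.13 and 0.13 in pairs 1 to 4 of motor neurons (mean 0.10 ± 0.25 (SD, n = 4), adjusted p = 0.773) and 0.22, 0.37, 0.13 and -0.12 in pairs 1 to 4 of glia (mean 0.15 ± 0.20 (SD, n = 4), adjusted p = 0.544). No direction was shared by all pairs of these 3 comparisons.

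Hspb8, the partner of Bag3 in clearing misfolded proteins, was bright enough only in TAU-P301L motor neurons, with 0.20, -0.032, -0.034 and 0.093 in pairs 1 to 4 (mean 0.057 ± 0.11 (SD, n = 4), adjusted p = 0.999). Its ratios were 0.043, 0.16, -0.018 and -0.085 in pairs 1 to 4 of SOD1-G93A motor neurons and -0.065, -0.054 and 0.052 in pairs 1, 3 and 4 of SOD1-G93A glia. In TAU-P301L glia they were -0.16, 0.11, 0.14 and 0.013 in pairs 1 to 4. The ratios of Hspb8 in all 4 comparisons lay between -0.16 and 0.20. Hspb2 and Hspb6, known from muscle, were near background, and Hspb2 had a mean of 0.12 ± 0.20 (SD, n = 4) in SOD1-G93A motor neurons (adjusted p = 0.552).

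J-domain proteins stimulate the ATPase of HSP70. Dnajb1 (HSP40), which is induced with Hspa1a, had ratios of -0.14, 0.86, 0.44 and 0.72 in pairs 1 to 4 of TAU-P301L glia (mean 0.47 ± 0.44 (SD, n = 4)), the highest mean of any member in that comparison, without passing (unadjusted p = 0.0118, adjusted p = 0.277). Pair 1 lay below 0 on both arrays, at -0.14 and -0.15, and without that pair the mean was 0.67. In SOD1-G93A glia Dnajb1 had 0.12, -0.012 and 0.86 in pairs 1, 3 and 4 (mean 0.32 ± 0.47 (SD, n = 3), adjusted p = 0.456), where 1 pair carried most of the mean. In motor neurons it had 0.078, 0.44, -0.15 and 0.38 in pairs 1 to 4 of SOD1-G93A mice (mean 0.19 ± 0.27 (SD, n = 4), adjusted p = 0.722) and -0.34, 0.085, 0.055 and 0.013 in pairs 1 to 4 of TAU-P301L mice (mean -0.046 ± 0.20 (SD, n = 4), adjusted p = 0.999). The difference in TAU-P301L mice, motor neurons minus glia, was -0.52 ± 0.23 (SE) (unadjusted p = 0.0411, adjusted p = 0.932).

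Dnajb4, a relative of Dnajb1, was below 0 in all 4 pairs of SOD1-G93A glia and above 0 in all 4 pairs of TAU-P301L glia. Its ratios were -0.045, -0.052, -0.079 and -0.26 in pairs 1 to 4 of SOD1-G93A glia (mean -0.11 ± 0.10 (SD, n = 4), adjusted p = 0.761). They were 0.24, 0.24, 0.29 and 0.31 in pairs 1 to 4 of TAU-P301L glia (mean 0.27 ± 0.038 (SD, n = 4), adjusted p = 0.331), a narrow spread. The difference between the models was -0.38 ± 0.16 (SE) and did not pass (unadjusted p = 0.0353, adjusted p = 0.734). Dnajb6, a suppressor of polyglutamine aggregation whose promoter holds 3 units, was above 0 in all 4 pairs of SOD1-G93A glia, at 0.0029, 0.34, 0.29 and 0.27 in pairs 1 to 4 (mean 0.23 ± 0.15 (SD, n = 4), adjusted p = 0.201). In TAU-P301L glia it had 0.38, -0.035, 0.24 and 0.22 in pairs 1 to 4 (mean 0.20 ± 0.17 (SD, n = 4), adjusted p = 0.319).

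Dnajc3, an inhibitor of the stress kinase PERK, was below 0 in each pair of TAU-P301L motor neurons, at -0.20, -0.25, -0.088 and -0.12 in pairs 1 to 4 (mean -0.17 ± 0.074 (SD, n = 4), adjusted p = 0.999). It was above 0 in each pair of SOD1-G93A glia, at 0.066, 0.055, 0.14 and 0.085 in pairs 1 to 4 (mean 0.086 ± 0.037 (SD, n = 4), adjusted p = 0.604). Other, dimmer Dnajc3 probes had means of 0.038, -0.060 and -0.016 in TAU-P301L motor neurons. In SOD1-G93A glia they had 0.046, -0.058 and 0.0015, so both directions rest on 1 probe. Dnajb2, a J protein enriched in neurons, had 0.16, 0.23, 0.063 and 0.066 in pairs 1 to 4 of TAU-P301L motor neurons (mean 0.13 ± 0.082 (SD, n = 4), adjusted p = 0.999), all above 0, and -0.36, 0.057, -0.0028 and -0.25 in pairs 1 to 4 of SOD1-G93A motor neurons (mean -0.14 ± 0.20 (SD, n = 4), adjusted p = 0.52). Dnajc5, the cysteine string protein of synaptic vesicles, had a mean of 0.31 ± 0.37 (SD, n = 4) in SOD1-G93A glia (adjusted p = 0.249). The means of Dnaja1, Dnaja2 and Dnaja3, the type I J proteins, lay between -0.20 and 0.32, and those of Dnajb9, an ER protein, between -0.067 and 0.12.

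Co-chaperones steer clients between folding and degradation. In SOD1-G93A motor neurons all 5 had means below 0. Bag3, which routes clients to autophagy, had -0.67, -0.36, -0.46 and -0.044 in pairs 1 to 4 of SOD1-G93A motor neurons (mean -0.38 ± 0.26 (SD, n = 4)), below 0 in every pair and the lowest mean of any member there, without passing (unadjusted p = 0.015, adjusted p = 0.486). In SOD1-G93A glia it had -0.092, -0.22, 0.65 and -0.065 in pairs 1 to 4 (mean 0.070 ± 0.39 (SD, n = 4), adjusted p = 0.896). In TAU-P301L motor neurons it had 0.12, 0.35, -0.13 and 0.57 in pairs 1 to 4 (mean 0.23 ± 0.30 (SD, n = 4), adjusted p = 0.999), and in TAU-P301L glia 0.056, 0.055 and 0.30 in pairs 2, 3 and 4 (mean 0.14 ± 0.14 (SD, n = 3), adjusted p = 0.822). The Bag3 mean was -0.51 over pairs 1 and 2, on one scan day, and -0.25 over pairs 3 and 4, on another. A second, dim Bag3 probe, well above background in 3 of 8 extracts, had a mean of 0.20 in SOD1-G93A motor neurons, so the 2 probes disagree there. Stub1 (CHIP), a ubiquitin ligase that tags chaperone clients, had -0.30, 0.19, -0.35 and -0.27 in pairs 1 to 4 of SOD1-G93A motor neurons (mean -0.18 ± 0.25 (SD, n = 4), unadjusted p = 0.0394, not passing). In TAU-P301L motor neurons all its pairs were above 0, at 0.055, 0.23, 0.043 and 0.40 in pairs 1 to 4 (mean 0.18 ± 0.17 (SD, n = 4), adjusted p = 0.999).

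The SOD1-G93A motor neuron values of the group were read beside the markers of the captured cells. Over pairs 1 to 4, the mean log2 ratio of the tested members was -0.15, 0.11, -0.0053 and -0.12, and that of the 11 motor neuron markers was -0.40, -0.10, -0.17 and 0.12. Of the motor neuron markers 8 of 11 had means below 0 (median -0.21), and 9 of 9 tested oligodendrocyte markers had means above 0 (median 0.13). The part of these markers in the values of the members was not tested. The CCT chaperonin, which folds actin and tubulin, had means of -0.21 ± 0.24 (SD, n = 4) for Cct2, 0.073 ± 0.18 (SD, n = 4) for Cct5 and -0.24 ± 0.43 (SD, n = 4) for Tcp1 in SOD1-G93A motor neurons. In TAU-P301L glia Cct5 was above 0 in all 4 pairs, at 0.11, 0.30, 0.095 and 0.024 in pairs 1 to 4 (mean 0.13 ± 0.12 (SD, n = 4), adjusted p = 0.727). The remaining co-chaperones Stip1 and Ahsa1, which bridge or activate HSP90, and Bag1 had means between -0.22 and 0.21.

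The second question was whether the effect of a transgene differed between cell types or models. No member and no other gene passed (0% of 9768 genes for SOD1-G93A motor neurons minus glia, of 8399 for TAU-P301L motor neurons minus glia, of 11328 for SOD1-G93A minus TAU-P301L motor neurons and of 8421 for SOD1-G93A minus TAU-P301L glia). At an unadjusted p under 0.05 there were 3 of 28 members (background 13.9%), 3 of 27 (4.86%), 7 of 31 (10.4%) and 1 of 27 (6.4%) in the same order. The 7 in motor neurons of the 2 models were Dnajb2, Stub1, Hspb1, Bag3, Hspa9, Dnajc3 and Hsp90aa1, named after their values were seen. Their SOD1-G93A minus TAU-P301L differences were -0.61 ± 0.19 (SE) for Bag3 (unadjusted p = 0.00741, adjusted p = 0.347), -0.36 ± 0.11 (SE) for Stub1, -0.36 ± 0.11 (SE) for Hspb1 and -0.27 ± 0.082 (SE) for Dnajb2 (adjusted p = 0.342 for each of these 3). Dnajc3, at 0.23 ± 0.090 (SE), and Hsp90aa1, at 0.41 ± 0.19 (SE), had the opposite sign (adjusted p = 0.447 and 0.471). Motor neuron markers lay mostly on opposite sides of 0 in the 2 comparisons, with 8 of 11 below 0 in SOD1-G93A motor neurons (median -0.21) and 7 of 8 above 0 in TAU-P301L motor neurons (median 0.097), and their part in these differences was not tested. The models differ in age and strain as well, and these cannot be told apart from the transgene.

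The third question was how the group is distributed between the cell types without a transgene. In control motor neurons 12 of 26 tested members were higher than in control glia and 1 was lower, where 19.4% of all 8452 tested genes were higher and 12.4% lower. These calls depend on the design: with the scan as a random block 0 of 26 members passed (Bag3, the largest of the 12, at adjusted p = 0.0773), and in the SOD colony alone 0 passed. The members' median difference was 0.49 on the log2 intensity scale, against 0.075 over all genes, with 20 members above 0 and 6 below. Of all genes called, 60.9% were higher in motor neurons, and under median scaling or the scanner's processed signals this was 89.9% and 76.2%. These scalings moved the median of all genes to 0.34 and 0.38, and the members' median stood 0.72 and 0.79 above it, against 0.41 in the values given here. The 12 were Bag3, Hspa8, Hspa9, Dnaja1, Hspd1, Hspe1, Hsp90ab1, Dnaja3, Dnajb4, Hspb1, Hspa4l and Stub1, and the single lower member was Hsf1. All differences are of single-channel log2 intensity over at most 8 control extracts per cell type, with the colony as a covariate in limma. Of the members that passed, Hsf1, Bag3, Dnaja1, Hspb1 and Stub1 had a value in 7 of the 8 glia extracts.

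Bag3 had the largest difference among the 12. Its log2 intensities were 7.22, 8.36 and 9.14 (lowest, median and highest) in control motor neurons, against 6.54, 7.16 and 7.72 in control glia, a difference of 1.17 ± 0.26 (SE) or 2.24-fold (adjusted p = 0.00419). Hspa8 had 9.09, 11.23 and 11.92 (lowest, median and highest, 7 extracts with a value) in control motor neurons, against 8.96, 10.16 and 10.54 in control glia, a difference of 1.03 ± 0.36 (SE) or 2.04-fold (adjusted p = 0.0408). Hspa9 had 7.42, 8.75 and 9.004 (lowest, median and highest) in control motor neurons, against 7.07, 7.65 and 7.94 in control glia, a difference of 0.93 ± 0.20 (SE) or 1.91-fold (adjusted p = 0.00343). The lowest motor neuron extract fell inside the range of glia for each of these 3 genes, and for all 3 it was pair 3 of the SOD colony. Second, dimmer probes of these genes differed by -0.21 for Bag3, 0.11 for Hspa8 and 0.079 for Hspa9, so the probes disagree in size, and for Bag3 in sign. Dnaja1, a J protein that works with Hspa8, had 6.99, 8.36 and 9.03 (lowest, median and highest) in control motor neurons, against 6.65, 7.42 and 7.75 in control glia, a difference of 0.93 ± 0.25 (SE) (adjusted p = 0.0129). Other, dimmer Dnaja1 probes differed by 0.83 and 0.40. Hspd1 had 7.99, 9.08 and 9.78 (lowest, median and highest) in control motor neurons, against 7.36, 8.16 and 8.88 in control glia, a difference of 0.90 ± 0.24 (SE) (adjusted p = 0.0111). Hspe1 had 7.58, 8.38 and 8.85 (lowest, median and highest) in control motor neurons, against 6.92, 7.61 and 8.15 in control glia, a difference of 0.79 ± 0.18 (SE) (adjusted p = 0.0047). The ranges of these 3 genes also overlapped, and pair 3 of the SOD colony was again the lowest motor neuron extract. The other differences that passed, among them Dnaja3, a mitochondrial J protein that works with Hspa9, were smaller: 0.77 ± 0.18 (SE) for Hsp90ab1 (adjusted p = 0.00601; 7 motor neuron extracts with a value), 0.72 ± 0.22 (SE) for Dnaja3 (adjusted p = 0.0215), 0.67 ± 0.17 (SE) for Dnajb4 (adjusted p = 0.00902), 0.59 ± 0.14 (SE) for Hspb1 (adjusted p = 0.0056), 0.58 ± 0.14 (SE) for Hspa4l (adjusted p = 0.00651) and 0.52 ± 0.12 (SE) for Stub1 (adjusted p = 0.00526).

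**Figure D3:**
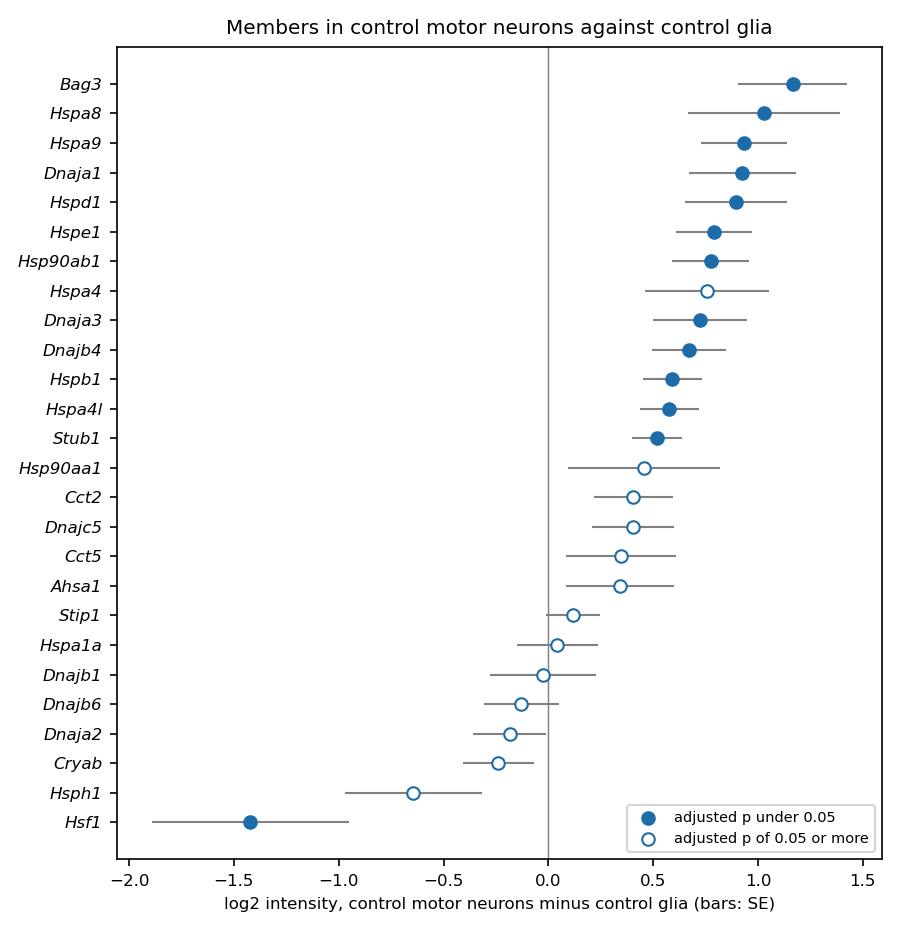
Difference in log2 intensity, control motor neurons minus control glia, for the 26 members tested (points, with the SE as bars), in order of size. Filled points passed an adjusted p of 0.05: 12 members to the right of 0, with Bag3 furthest at 1.17, and Hsf1 to the left at -1.42.

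Hsf1 was lower in motor neurons. Its log2 intensities were 8.27, 11.06 and 11.82 (lowest, median and highest, 6 extracts with a value) in control motor neurons, against 11.11, 12.37 and 13.27 in control glia, a difference of -1.42 ± 0.47 (SE), so that glia were 2.68-fold higher (adjusted p = 0.0342). The ranges overlapped, and the call changed with the settings: over the alternatives run the difference ran between -1.82 and -0.17, with adjusted p between 0.00893 and 0.845, and the other 2 Hsf1 probes, near background, had differences of 0.19 and 0.014. In transgenic extracts the difference was -0.78 (adjusted p = 0.141).

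Pair 3 of the SOD colony decided how many members passed. Without its control motor neuron extract, 17 members were higher and 1 was lower. The number of all genes called higher rose as well, to 2451 without that extract against 1640 with it. Hsp90aa1 had 9.39, 12.67 and 12.76 (lowest, median and highest) in control motor neurons, against 11.54, 11.84 and 11.98 in control glia, where the lowest value is that extract. The difference was 0.46 ± 0.36 (SE) with it (adjusted p = 0.351) and 0.86 without it (adjusted p = 2.06e-05). Without it Hspa4 (1.00, against 0.76 with it), Cct2 (0.55, against 0.41), Cct5 (0.60, against 0.35) and Dnajc5 (0.53, against 0.40) also passed. The 12 members above passed with and without it, at 1.35 for Bag3, 1.41 for Hspa8 and 1.11 for Hspa9 without it, and Hsf1 stood at -0.93 (adjusted p = 0.036). Without it the lowest motor neuron extract lay above the highest glia extract for Dnaja1, Dnajb4, Hsp90aa1, Hsp90ab1, Hspa4l, Hspa8, Hspa9, Hspb1 and Hspe1. The extract was left out here after its low levels were seen. The share of all genes whose ranges part in this way was not counted, so whether the separation is particular to the members was not tested.

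**Figure D4:**
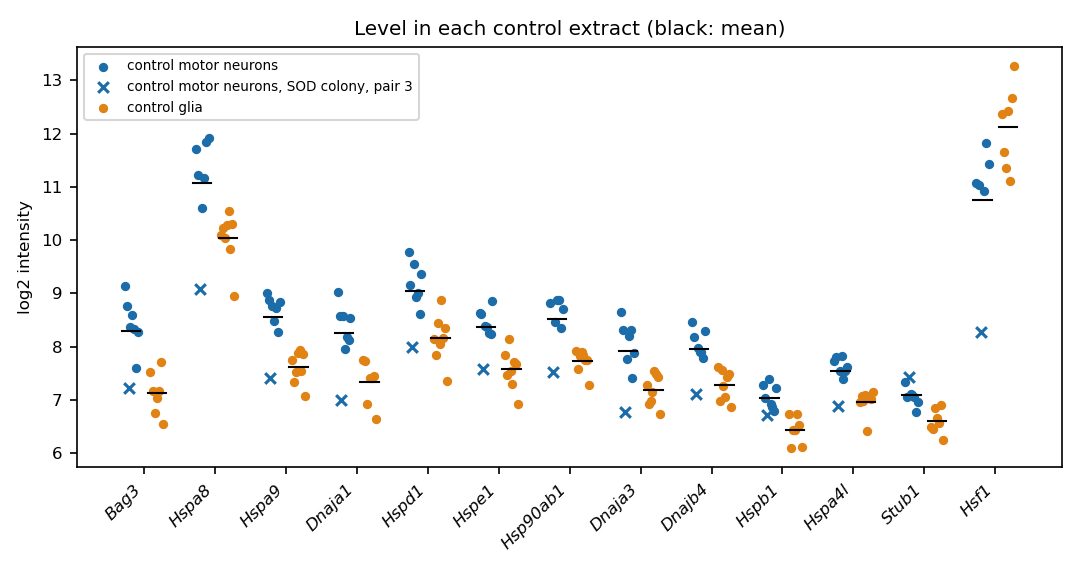
Log2 intensity of the 13 members that passed in each control extract (points, with the mean as a black bar), motor neurons left of glia for each gene. The crosses mark pair 3 of the SOD colony, which is the lowest motor neuron point for every gene shown except Stub1.

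Members that did not pass between the cell types included the stress-induced Hspa1a and Dnajb1 and the small heat shock protein Cryab. Hspa1a differed by 0.042 ± 0.19 (SE) (adjusted p = 0.883), although its second probe differed by 0.56. Dnajb1 differed by -0.026 ± 0.25 (SE) (adjusted p = 0.947), Cryab by -0.24 ± 0.17 (SE) (adjusted p = 0.292) and Hsph1 by -0.64 ± 0.33 (SE) (adjusted p = 0.138). The signs of Cryab and Dnajb1 depended on scaling, at 0.25 and 0.74 under median scaling. Stip1, Ahsa1, Dnaja2 and Dnajb6 lay between -0.18 and 0.34. The other 11 members were too dim in 1 or both cell types for the test. Of these, Tcp1 was well above background in 7 of 8 control motor neuron and 1 of 8 control glia extracts (mean log2 intensity 6.72 and 6.23, ranges apart), Dnajc3 in 7 and 3, Dnajb9 in 4 and 1, and Hspb8 in 4 and 1. Dnajb2 was well above background in 5 motor neuron extracts and not well above background in any glia extract. Its mean log2 intensities were 6.33 and 6.11, its ranges overlapped, and no direction was tested. Hspa2 was above background in 4 and 0 extracts, and Hsf2 in 1 and 0.

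The transgenic extracts are a second set from the same scans and, by pair, the same arrays. There 11 of 27 tested members were higher in motor neurons and 0 were lower, where 14.3% of 9263 genes were higher and 6.89% lower. At an unadjusted p under 0.05, 13 members were higher and 1 was lower, beside 2149 and 1253 of the 9263 genes. The median difference of the members was 0.43 and that of all genes 0.061. Differences in transgenic extracts were 0.96 for Bag3, 1.00 for Hspa8 and 0.89 for Hspa9. With the scan as a random block, 0 of 26 members passed between control motor neurons and glia, and 163 of 8452 genes were higher and 98 lower. Since no scan held both cell types, the cell type and the scan cannot be told apart.

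Promoter letters were set beside these values. The median control difference, motor neurons minus glia, was 0.56 over the 12 tested members with at least 1 pattern in a window (7 of them called higher) and 0.34 over the 7 without (2 called higher). Of all tested genes 19.4% were called higher. Members with no window were left out. The shares among all genes with and without the pattern were not counted, and a link between the letters and the levels was not tested. In the transgenic comparisons the medians of the members with and without the letters were -0.084 and -0.028 for motor neurons and 0.073 and 0.079 for glia of SOD1-G93A mice. For TAU-P301L mice they were 0.057 and 0.044 in motor neurons and 0.095 and 0.14 in glia.

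The wider chaperone system was read from 85 other genes, listed by class, with earlier results of these data known. Between control cell types 22 of 46 tested were higher in motor neurons and 1 was lower, beside 19.4% and 12.4% of all genes, with a median difference of 0.36. The smallest adjusted p belonged to Pfdn6, a subunit of prefoldin that hands actin and tubulin to CCT (0.67, adjusted p = 0.000987). It was followed by the CCT subunit Cct6b (0.52, adjusted p = 0.00126), the J protein Dnajc12 (0.62, adjusted p = 0.00138) and Hspa5 (BiP), the HSP70 of the ER (0.95, adjusted p = 0.00147). Pfdn5, another prefoldin subunit, was the lower one (-0.87, adjusted p = 0.028). In the transgenic comparisons 0 of these genes passed. In SOD1-G93A motor neurons 51 of 64 tested had means below 0 (median -0.065, with 1 higher and 6 lower at an unadjusted p under 0.05), where 6647 of 13296 genes had means below 0. The number with means above 0 was 32 of 54 (59.3%) in SOD1-G93A glia, 34 of 62 (54.8%) in TAU-P301L motor neurons and 32 of 46 (69.6%) in TAU-P301L glia, beside 56.8%, 46.5% and 50.9% of all tested genes.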

How the data were processed

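Laser-captured motor neurons and glia were measured on 32 two-colour arrays. The deposited scanner files hold spot intensity, read with Agilent Feature Extraction. The file headers give version 8.5.1.1 for the 16 motor neuron arrays and 9.5.1.1 for the 16 glia arrays, whereas the submitters' processing notes give version 8.5.1.1. The deposited value table holds log10 ratios, transgenic over control, rounded by the authors, and served as an alternative. From the intensities, log2 ratios of the deposited arrays were computed with normexp (offset 50) and loess, averaged per littermate pair, and fitted with limma 3.58.1 (R 4.3.3, Python 3.11.15) with Benjamini-Hochberg adjustment at 0.05 over all tested genes. Levels were compared per channel after between-array scaling of mean intensity (Aquantile), colony entering as covariate. A gene was tested when its probe was well above background in at least 4 of 8 extracts of a comparison, or of each cell type. The number of arrays limits the precision, and the labels give littermate pairs. The members and lists were chosen with earlier results of these data known. Named in full were 10 preset members, members with 1 sign in all 4 pairs by smallest p, and every member past the threshold between cell types. The fits were tested on simulated data. Alternatives covered normalization, filters, scans, probes, priors and left-out pairs.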

Additional observations from a re-analysis of the deposited data

Results flagged for a closer look

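Among 120 groups of pair ratios, 7 held a pair far from the other 3. Some of the 120 had fewer than 4 values and could not be flagged. Chance flags about 1 in 20 of the groups with 4 values. The log2 ratios set apart were -0.9619 for Hspa8, -0.2386 for Hspd1, -0.2577 for Dnajb4 and 0.4481 for Cct5, all in pair 4 of SOD1-G93A glia. The others were -0.448 for Hsp90ab1 in TAU-P301L glia pair 1, -0.3372 for Dnajb1 in TAU-P301L motor neurons pair 1 and 0.1942 for Stub1 in SOD1-G93A motor neurons pair 2.

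Among 52 groups of control levels, 8 held an extract far from the others, and 6 of these were lowest in the SOD colony's motor neuron pair 3. In that extract the log2 intensity was 8.269 for Hsf1, 7.417 for Hspa9, 6.89 for Hspa4l, 9.387 for Hsp90aa1, 7.524 for Hsp90ab1 and 7.711 for Cct5. The other values were 8.955 for Hspa8 in TAU glia pair 4 and 6.418 for Hspa4l in TAU glia pair 1.

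For 2 members, each read from its brightest probe, every pair of one model lay on the opposite side of 0 to every pair of the other. The SOD1-G93A minus TAU-P301L difference was -0.5033 for Hspa9 in motor neurons (adjusted p = 0.447 in limma) and -0.3796 for Dnajb4 in glia (adjusted p = 0.734), and neither passed.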

How the results depend on the processing

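In the 4 transgenic comparisons and their 4 differences, 0 members passed under every alternative computed. Between control motor neurons and glia, 0 members were lower in transgenic extracts, in the SOD colony alone, in the TAU colony alone, under quantile normalization, median scaling or the scanner's processed signals, with probes well above background in all 16 extracts, and with the scan as a random block; the cause was not tested. The number higher was 0 in the SOD colony alone and with the scan as a random block, and 1 with the 16-extract filter, which left 4 members to test. Leaving out 1 replicate at a time gave 0 to 1 members lower and 11 to 17 higher, the 17 without SOD motor neuron pair 3. Over all genes, 1330 to 2451 were higher, the 2451 also without that pair. Of the members, 0 were lower without SOD glia pair 1 or 4, TAU motor neuron pair 1 or TAU glia pair 2 or 4. With the replicate number as a block, 11 were higher, 1 was lower and 0 passed in the differences. Correlations of same-numbered deviations ran between -0.163 and 0.326 for the ratios and between -0.3352 and 0.6233 for control levels. In none of the comparisons tested was every correlation of the quantity it uses over 0.1. Control levels of SOD and TAU motor neurons, which share scan days by number and were not tested against each other, had correlations of 0.2603 to 0.5227.

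Counts of all genes, 0 in the 4 comparisons and 4 differences, reached 20 for SOD1-G93A minus TAU-P301L glia within 1 scan (scan 5). In SOD1-G93A glia 5 genes passed with the scan as a random block and 8 with the variance prior taken over all array genes, an alternative chosen after seeing the data. In TAU-P301L glia 5 passed without pairs of negative dye-swap correlation and 1 without pair 1 or pair 3. In SOD1-G93A motor neurons 2 passed within scan 2, and 1 without a filter, with that prior, or without pair 4. For TAU-P301L motor neurons minus glia 1 passed without the negative dye-swap pairs or without glia pair 1, for SOD1-G93A minus TAU-P301L motor neurons 1 without TAU pair 3, and for the glia of the 2 models 1 without TAU pair 2. Between control cell types 123 genes were higher and 304 lower in the SOD colony alone, 791 and 182 in the TAU colony alone, and 4099 and 3194 without a filter.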
